A study of Rattus norvegicus with 8 samples.

Results

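The collagen genes of rat liver are described here across 4 groups of animals, library by library. They were taken from a table of 30562 genes as the protein-coding genes whose symbol has the form of a collagen chain (Col, a number, a and a number). There are 44 such genes, and the 42 with at least 10 reads summed over the 8 libraries are reported. Col9a1 had 0 reads and Col19a1 had 8. Of the 42 genes, 38 passed the filter on low counts and were tested, and the other 4 are given by their reads.

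RNA was sequenced from the livers of male Wistar rats in a 2 by 2 design with 2 libraries per group, each from a separate rat. Per the labels, 20 rats of 160 g were assigned 5 to a group and 2 of each group were sequenced. Control rats received only the vehicle, water with a Tween detergent. Atorvastatin, a statin that blocks the enzyme HMG-CoA reductase, was given in the drinking water at 5 mg/kg per day for 30 days. The labels also give this dose as a fixed amount per rat, which for a rat of 160 g would be a larger dose per kg. Hexachlorobenzene (HCB) is a persistent chlorinated pollutant that is toxic to the liver. It was given by gavage over 30 days, in doses of 100 mg/kg, with 3 doses per week. The combination group, atorvastatin plus HCB, received both agents. All animals were killed on day 37, so every group is bulk liver at 1 time point from 2 rats.

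The 4 libraries of rats labelled as exposed to HCB, alone or with atorvastatin, differ from the other 4 in more than the exposure named on the label. The 30 genes of chromosome Y summed to 5375 to 6873 reads in the 4 HCB-labelled libraries and to 40 to 79 reads in the other 4, although every rat is labelled male. The 6 fetal liver genes of a marker list (Afp, H19, Igf2, Dlk1, Gpc3 and Mki67) summed to 37600 to 51600 CPM in the 4 libraries without HCB and to 172 to 339 CPM in the HCB-labelled ones, where CPM is counts per 1e6 of the normalised library size. Every difference with HCB below is therefore a difference between libraries so labelled, and an effect of HCB cannot be told apart from whatever else sets these 2 sets of livers apart. Assigned reads ran from 29.4 M to 52 M per library (M, reads in units of 1e6). Reads that fell in no exon made up 7.46% to 11.4% of the HCB-labelled libraries and 15.3% to 34% of the others.

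Collagens are secreted proteins built from 3 chains wound into a triple helix, and the chains of 1 trimer can come from different genes. Fibrillar collagens (types I, III, V and XI, with relatives) give tissues tensile strength, type IV forms the sheet of basement membranes, type VI forms beaded filaments, and fibril-associated collagens decorate the fibrils. In liver, hepatic stellate cells and portal fibroblasts are the best known sources of fibrillar collagen, type I with type III accumulates in fibrosis, and Col18a1, the source of endostatin, is made largely by hepatocytes.

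The 6 type IV chains lie in 3 head to head gene pairs. The start regions of 2 pairs overlap, and in both comparisons with HCB both genes of 1 of these pairs (Col4a1 and Col4a2) were lower and both genes of the other (Col4a3 and Col4a4) higher. These 2 pairs of start regions are shown for this reason. Of the 42 genes, 33 matched the RefSeq promoter table (build GRCr8) by symbol, with 36 windows of 300 bases. Each window runs 5′ to 3′ on the strand of its gene, across the annotated start. Capitals mark the bases that lie in the windows of both genes of a pair, so that the capitals of 1 gene are the reverse complement of those of its partner. The Col4a1 and Col4a2 windows share 176 bases and their starts are 77 bases apart. The Col4a3 and Col4a4 windows share 88 bases and their starts are 413 bases apart.
Col4a1, chr16:84885347-84885646, plus strand: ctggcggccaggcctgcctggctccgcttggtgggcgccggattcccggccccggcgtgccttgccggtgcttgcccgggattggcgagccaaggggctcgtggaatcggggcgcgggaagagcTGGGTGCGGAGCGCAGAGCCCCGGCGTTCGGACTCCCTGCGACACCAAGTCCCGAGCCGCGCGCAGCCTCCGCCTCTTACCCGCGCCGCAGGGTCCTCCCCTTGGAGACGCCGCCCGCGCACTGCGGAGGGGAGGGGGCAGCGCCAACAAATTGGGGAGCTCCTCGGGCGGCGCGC
Col4a2, chr16:84885471-84885770, minus strand: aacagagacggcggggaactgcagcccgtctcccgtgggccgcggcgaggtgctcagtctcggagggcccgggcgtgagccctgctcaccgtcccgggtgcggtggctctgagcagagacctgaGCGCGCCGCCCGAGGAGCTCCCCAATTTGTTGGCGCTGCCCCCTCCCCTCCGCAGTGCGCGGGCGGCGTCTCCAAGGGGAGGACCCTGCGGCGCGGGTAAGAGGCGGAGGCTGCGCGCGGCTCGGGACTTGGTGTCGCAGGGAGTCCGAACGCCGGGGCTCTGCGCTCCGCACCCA
Col4a3, chr9:91323740-91324039, plus strand: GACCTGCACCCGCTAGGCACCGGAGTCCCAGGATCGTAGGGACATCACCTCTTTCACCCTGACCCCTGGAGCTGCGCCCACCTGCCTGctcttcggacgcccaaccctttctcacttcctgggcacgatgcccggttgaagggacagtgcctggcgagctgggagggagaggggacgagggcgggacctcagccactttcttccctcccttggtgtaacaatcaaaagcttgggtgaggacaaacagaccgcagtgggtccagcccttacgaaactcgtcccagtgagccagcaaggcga
Col4a4, chr9:91323528-91323827, minus strand: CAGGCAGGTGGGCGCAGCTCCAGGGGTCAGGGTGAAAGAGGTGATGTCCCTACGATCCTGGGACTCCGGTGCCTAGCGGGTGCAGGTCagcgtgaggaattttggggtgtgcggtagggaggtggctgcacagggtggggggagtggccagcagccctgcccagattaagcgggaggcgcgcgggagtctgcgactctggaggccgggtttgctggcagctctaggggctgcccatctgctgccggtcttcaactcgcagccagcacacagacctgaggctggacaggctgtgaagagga

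Both windows of the first pair are rich in G and C (75% and 73.7%), against a median of 51.7% over all 33469 windows of the table, and those of Col4a3 and Col4a4 hold 62% and 65.3%. The median G and C content of the 36 collagen windows was 59.3%. The motif GGGCGG, searched on both strands, is in 20 of the 36 collagen windows (55.6%) and in 33.1% of all windows. It occurs 2 times in the bases shared by the Col4a1 and Col4a2 windows, so both windows hold the same 2 sites and both count among the 20. It occurs 1 time in the window of Col4a3 and 0 times in that of Col4a4. The motif CCAAT on either strand is in 12 of 36 collagen windows and 37.5% of all windows, and TATAAA in 4 of 36 and 14.2%. Both of these motifs are found for Col1a2, Col10a1 and Col17a1. The window of Col1a2, a type I chain whose level is described below, holds both and is shown. In it the capitals mark TATAAA and ATTGG, the reverse complement of CCAAT.
Col1a2, chr4:33518307-33518606, plus strand: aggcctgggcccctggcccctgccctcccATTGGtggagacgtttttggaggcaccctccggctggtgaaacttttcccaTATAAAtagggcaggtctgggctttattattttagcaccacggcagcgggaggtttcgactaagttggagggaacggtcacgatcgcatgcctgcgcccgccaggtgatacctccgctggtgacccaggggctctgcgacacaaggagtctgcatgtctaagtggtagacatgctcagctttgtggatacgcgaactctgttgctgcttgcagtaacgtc

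A few genes made up most of the collagen RNA. On the scale of CPM per kilobase of exon length (RPKM), the only one on which levels of different genes are compared here, the highest means over the 8 libraries were those of Col18a1 (122), Col3a1 (101), Col1a1 (41), Col1a2 (39.8) and Col14a1 (28.5). These 5 genes held 74.3% to 82.1% of the collagen RPKM of a library. Summed over all members, collagen took 0.275% to 0.366% of assigned reads in 3 of the libraries without HCB, 0.626% in atorvastatin replicate 2, and 0.106% to 0.159% in the 4 HCB-labelled libraries. The highest HCB-labelled library thus lay below the lowest of the others. In bulk liver, fewer cells of a type and less RNA per cell cannot be told apart.

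Most tested collagen genes were lower in the libraries labelled HCB. In HCB against control, 15 of 38 collagen genes passed the threshold of adjusted p under 0.05 (edgeR quasi-likelihood test, Benjamini-Hochberg over 16591 genes), 3 higher and 12 lower. Over all genes tested, 26.9% passed in this comparison, 13% higher and 13.9% lower. In atorvastatin plus HCB against atorvastatin, 25 of 38 passed, 3 higher and 22 lower, beside 27.6% of all genes (12.6% higher and 15% lower). The average HCB effect, which takes the mean of both differences and so uses all 8 libraries, called 29 of 38, 4 higher and 25 lower, beside 46.6% of all genes (21.3% higher and 25.3% lower). The share of collagen genes called lower was thus above the share of all genes in each comparison, and the share called higher was below it.

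The median log2 change of the 38 genes was −1.21 in HCB against control, −1.76 in atorvastatin plus HCB against atorvastatin and −1.49 in the average, against −0.09, −0.11 and −0.11 over all genes. All 4 HCB-labelled libraries lay below all 4 others for 20 of the 38 genes (52.6%), which holds for 25% of all genes tested. They lay above them for 4 of 38 (10.5%), against 21.8% of all genes. The comparison of HCB with control and that of the combination with atorvastatin have no library in common, though they share 1 estimate of the spread, and 15 genes passed in both, in the same direction each time. These were Col1a2, Col5a1, Col5a2, Col11a1, Col4a1, Col4a2, Col4a5, Col14a1, Col16a1, Col17a1, Col25a1 and Col8a2, lower, and Col4a3, Col4a4 and Col8a1, higher. Both comparisons carry the differences in Y-linked and fetal genes given above. Leaving out 1 library lowered the count to 9 in HCB against control (without control replicate 1 and without HCB replicate 1) and to 8, 13 and 17 in the combination against atorvastatin (without replicate 1 and 2 of the combination and without atorvastatin replicate 2). The share of all genes called was then lower too, at 12.4% and 14.7% in the first comparison and at 10.8%, 14.2% and 22.5% in the second. Called in all alternatives run were 7 genes in the first comparison (Col16a1, Col4a1, Col4a2, Col4a5, Col5a1, Col5a2 and Col8a2) and 7 in the second (Col11a1, Col16a1, Col4a3, Col5a1, Col5a2, Col8a1 and Col8a2), and every other call of these 2 comparisons was lost in at least 1. The 3 genes called higher in HCB against control (Col4a3, Col4a4 and Col8a1) all lost that call without control replicate 1 and without both libraries with most reads outside exons.

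**Figure D1:**
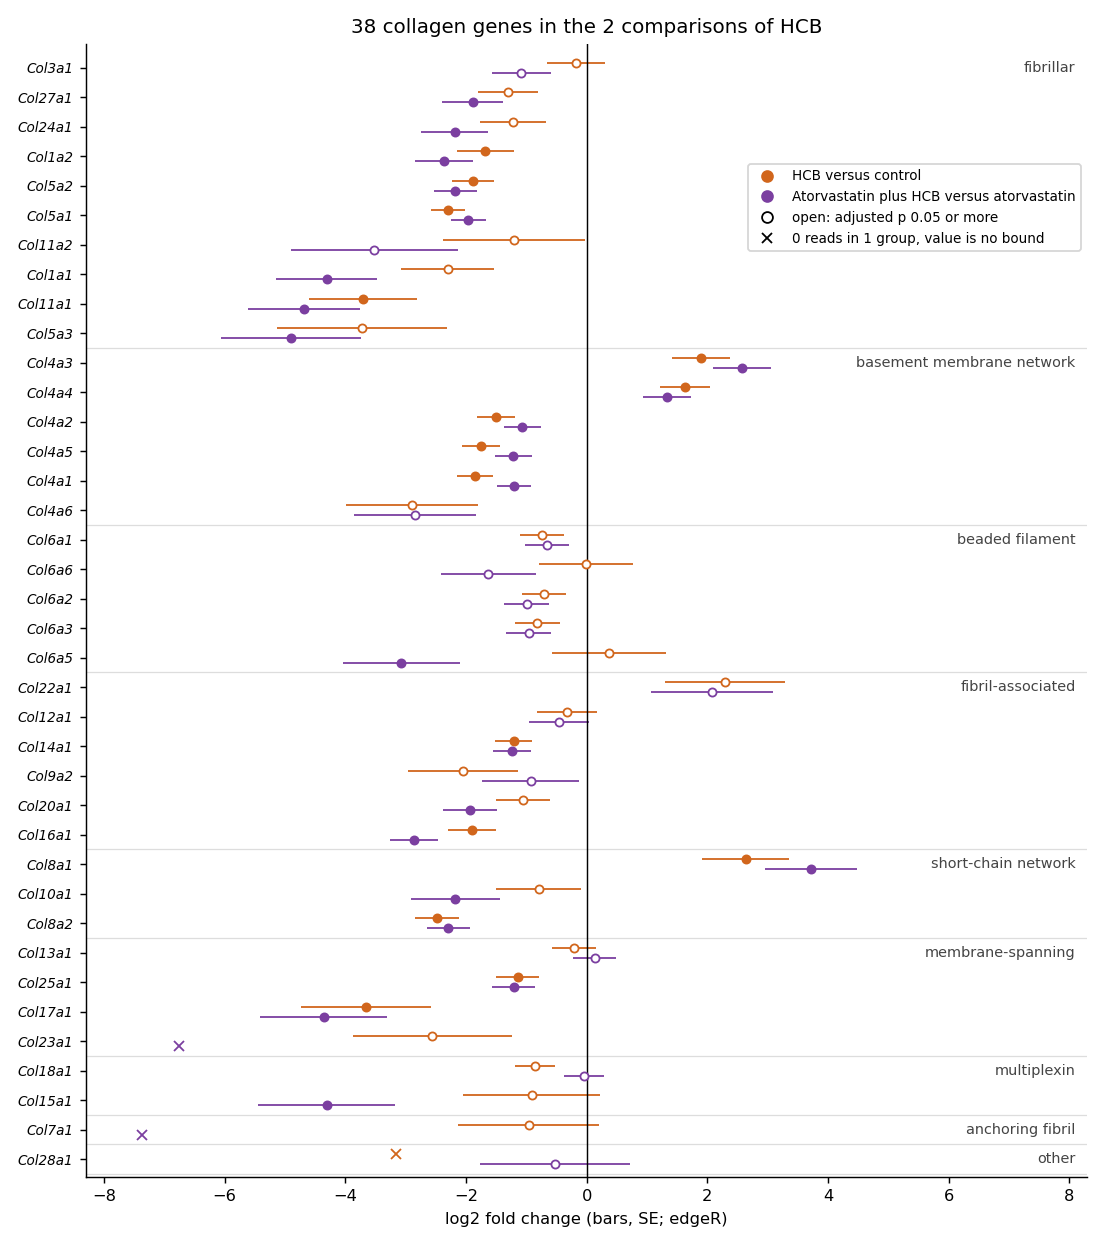
Log2 fold changes (horizontal axis, bars are SE) of the 38 tested collagen genes, by class, in HCB against control (orange) and in atorvastatin plus HCB against atorvastatin (purple). Filled points passed adjusted p under 0.05, crosses mark genes with 0 reads in 1 of the groups. Most points lie left of 0, and Col4a3, Col4a4 and Col8a1 are the filled points to its right.

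No fibrillar collagen was called higher in these comparisons. Of 10 tested, 4 were lower in HCB against control, 8 in atorvastatin plus HCB against atorvastatin and 8 in the average. Of all genes, 13.9%, 15% and 25.3% were called lower in these comparisons. Col1a1 (chromosome 10, 79883622 to 79900624 on mRatBN7.2, the build of all coordinates that follow) encodes the chain present in 2 copies in each type I collagen trimer. It stood at 136 and 138 CPM in the control libraries, 152 and 1351 CPM in the atorvastatin libraries, 25.2 and 30.3 CPM with HCB and 31.5 and 44.2 CPM with both agents. All 4 HCB-labelled libraries were below all others, and atorvastatin replicate 2 was far above its partner. The log2 change was −2.31 ± 0.77 (SE) in HCB against control, which missed the threshold (adjusted p = 0.055, edgeR), and −4.31 ± 0.84 in atorvastatin plus HCB against atorvastatin (adjusted p = 0.00621, edgeR). Without atorvastatin replicate 2 the first value was −2.30 and passed (adjusted p = 4.35e-05, edgeR), and the second was −1.99 (adjusted p = 0.000485).

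Col1a2 (chromosome 4, 32563381 to 32598867), the partner chain of type I, stood at 207 and 181 CPM in control, 177 and 648 CPM with atorvastatin, 58.2 and 62.9 CPM with HCB and 75 and 85 CPM with both. The HCB-labelled libraries again lay below all others. It fell, with a log2 change of −1.68 ± 0.47 in HCB against control (adjusted p = 0.0231, edgeR) and of −2.37 ± 0.48 in the combination against atorvastatin (adjusted p = 0.00501). Without atorvastatin plus HCB replicate 1, both type I chains missed the threshold in the latter comparison, at adjusted p of 0.0654 (Col1a1) and 0.0518 (Col1a2) in edgeR.

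Type III collagen, made of 3 copies of the Col3a1 chain and mixed with type I in fibrils, gave no call. Col3a1 (chromosome 9, 47374593 to 47410547) stood at 372 and 392 CPM in control, 345 and 1304 CPM with atorvastatin, 369 and 305 CPM with HCB and 354 and 423 CPM with both. Apart from atorvastatin replicate 2, the 7 libraries lay within the narrow range of 305 to 423 CPM, and the HCB-labelled libraries overlapped the others. Its log2 change was −0.18 ± 0.48 in HCB against control (adjusted p = 0.81, edgeR) and −1.08 ± 0.49 in the combination against atorvastatin (adjusted p = 0.12), where it became 0.18 without atorvastatin replicate 2.

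The chains of type V, a minor fibrillar collagen that is incorporated into type I fibrils and helps to set their diameter, include Col5a1 and Col5a2, both lower. Col5a1 stood at 108 and 99.5 CPM in control, 111 and 167 CPM with atorvastatin, 16.6 and 25.5 CPM with HCB and 36.1 and 35.3 CPM with both. Its log2 change was −2.30 ± 0.29 in HCB against control (adjusted p = 0.000301, edgeR) and −1.96 ± 0.28 in the combination against atorvastatin (adjusted p = 0.000722). Its partner Col5a2, which lies tail to tail with Col3a1 at a distance of 38188 bases on chromosome 9, stood at 53 and 50.8 CPM in control, 42.1 and 100 CPM with atorvastatin, 15.5 and 12.6 CPM with HCB and 15.1 and 16.4 CPM with both. For both genes all HCB-labelled libraries were below all others, and both passed in every alternative analysis that was run for these 2 comparisons. Col5a2 changed by −1.89 ± 0.35 (adjusted p = 0.00302, edgeR) and −2.18 ± 0.35 (adjusted p = 0.00142), while its neighbour Col3a1 did not pass.

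Col5a3, the third type V chain, was low except in 1 library. It stood at 1.09 and 0.521 CPM in control, 0.91 and 15 CPM with atorvastatin, 0.0633 and 0.0534 CPM with HCB and 0.401 and 0.135 CPM with both. The call in the combination against atorvastatin (log2 change −4.89 ± 1.16, adjusted p = 0.0126, edgeR) was lost without atorvastatin replicate 2 (−1.75, adjusted p = 0.216). Col5a3 also passed in the average (−4.31 ± 0.89, adjusted p = 0.00347, edgeR), and was lower in every HCB-labelled library than in any other. That call was kept in all alternatives run, and the value was −2.735 without atorvastatin replicate 2. Col11a1, the type XI chain best known from cartilage and also found in developing soft tissue, stood at 1.47 and 2.37 CPM in control, 1.75 and 3.16 CPM with atorvastatin, 0.127 and 0.16 CPM with HCB and 0 and 0.18 CPM with both. It fell, with log2 changes of −3.71 ± 0.90 and −4.68 ± 0.93 in the 2 comparisons (adjusted p = 0.0118 and 0.00443, edgeR).

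The remaining fibrillar genes were low. Col27a1 stood at 25.5 and 16.1 CPM in control, 38.6 and 22.6 CPM with atorvastatin, 4.02 and 12.8 CPM with HCB and 6.37 and 10.2 CPM with both, and passed in the combination against atorvastatin (−1.88 ± 0.50, adjusted p = 0.0204, edgeR). Col24a1 stood at 1.5 and 1.68 CPM in control, 2.47 and 2.22 CPM with atorvastatin, 0.728 and 0.641 CPM with HCB and 0.301 and 0.72 CPM with both, and passed there too (−2.19 ± 0.55, adjusted p = 0.0146). Both sat lower in every HCB-labelled library than in any other. Both calls were lost without atorvastatin replicate 1 and without atorvastatin plus HCB replicate 1. They were also lost without both libraries with most reads outside exons, control replicate 1 and atorvastatin replicate 1, in which Col27a1 was highest. Col11a2 ranged from 0 to 0.599 CPM and passed in none of the comparisons in edgeR. Col2a1, the main collagen of cartilage, had 18 reads in all, with 0 in each HCB-labelled library, and was not tested. Of 6 other cartilage markers 2 were tested, and both were lower in every HCB-labelled library than in any other: Matn3 stood at 0.0623 to 0.426 CPM without HCB and at 0 reads in all 4 HCB-labelled libraries, and Sox9, also a bile duct marker, at 6.51 to 7.95 CPM and 1.14 to 2.79 CPM. Matn1 had 0 reads everywhere and Acan at most 0.0831 CPM in a library. The part of cartilage cells in the result was not tested.

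**Figure D2:**
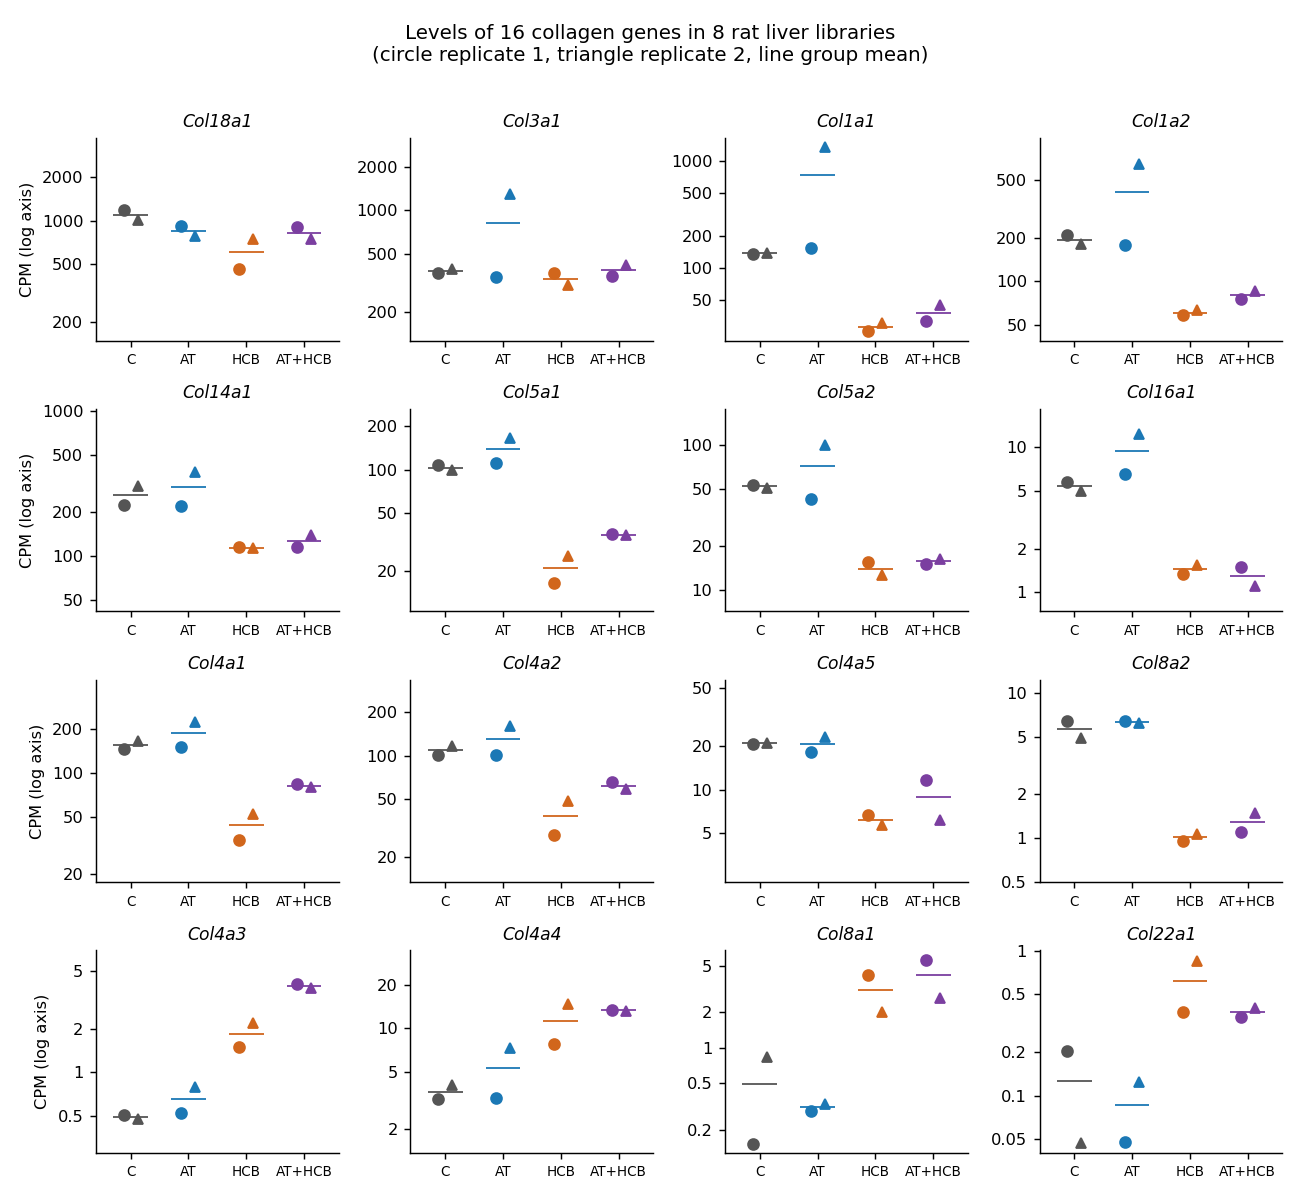
CPM (vertical log axes, each panel on its own scale) of 16 collagen genes in control (C), atorvastatin (AT), HCB and atorvastatin plus HCB (AT+HCB). Circles are replicate 1, triangles replicate 2 and lines group means. The high atorvastatin triangle of Col1a1 is 1351 CPM, and Col4a3, Col4a4, Col8a1 and Col22a1 are the panels in which the HCB-labelled libraries are higher.

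Because some members of a class did not move alike, some ratios between chains, per length, differed by label. Col1a1 over Col1a2 was 0.527 and 0.617 in control, 0.691 and 1.68 with atorvastatin, 0.349 and 0.388 with HCB and 0.338 and 0.418 with both. Col3a1 over Col1a1 was 3.33 and 3.45 in control, 2.76 and 1.17 with atorvastatin, 17.8 and 12.3 with HCB and 13.7 and 11.7 with both. Neither ratio overlapped between the HCB-labelled libraries and the others, in opposite directions. Other ratios did overlap. Col4a3 over Col4a4 was 0.137 to 0.204 in the libraries without HCB and 0.189 to 0.385 in those labelled HCB. Col6a1 over Col6a2 was 1.73 to 1.97 and 1.86 to 2.33, and Col4a5 over Col4a6 was 6.84 to 36.4 and 16.3 to 202. These ratios are descriptions of 8 libraries, and RNA ratios say nothing of the stoichiometry of the protein.

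**Figure D3:**
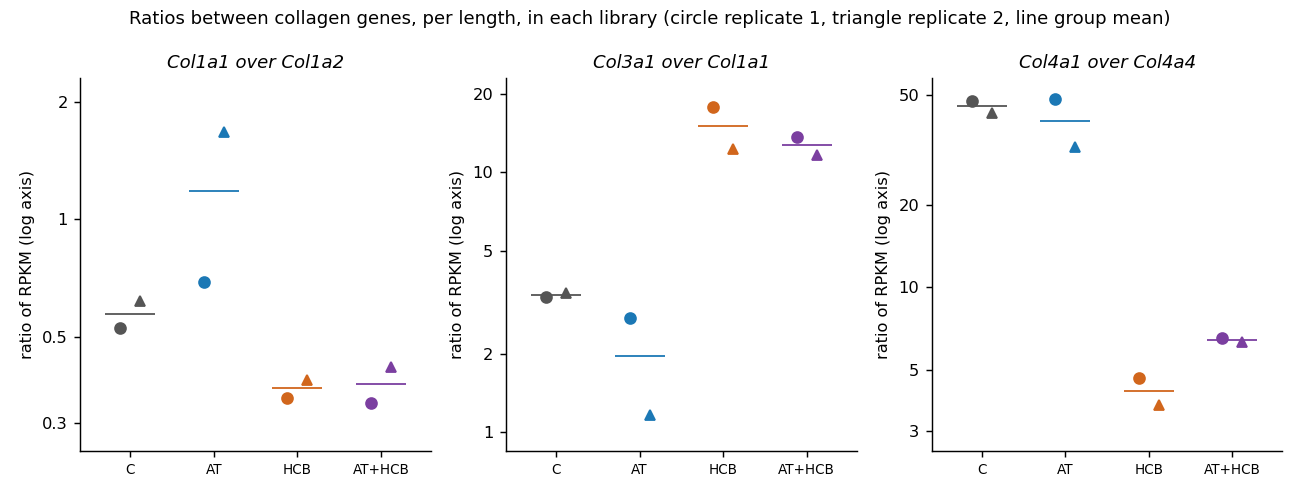
Ratios of RPKM (vertical log axes) between pairs of collagen genes in each library of control (C), atorvastatin (AT), HCB and atorvastatin plus HCB (AT+HCB), with circles for replicate 1, triangles for replicate 2 and lines for group means. The HCB-labelled libraries lie at 0.338 to 0.418 for Col1a1 over Col1a2, at 11.7 to 17.8 for Col3a1 over Col1a1 and at 3.74 to 6.57 for Col4a1 over Col4a4, with no overlap with the other libraries. The last ratio could not overlap, since Col4a1 was lower and Col4a4 higher in every HCB-labelled library.

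Type IV collagen split into chains that were lower and chains that were higher. Of its 6 genes, 3 were lower and 2 higher in both comparisons, and 4 and 2 in the average. Of all genes, 13.9%, 15% and 25.3% were called lower there, and 13%, 12.6% and 21.3% higher. Col4a1 and Col4a2 form the common trimer of basement membranes in most tissues. Col4a1 (chromosome 16, 78183533 to 78294412, plus strand) stood at 146 and 166 CPM in control, 151 and 225 CPM with atorvastatin, 34.5 and 52.4 CPM with HCB and 84.1 and 79.4 CPM with both. Col4a2 (chromosome 16, 78047602 to 78183839, minus strand) stood at 101 and 117 CPM in control, 101 and 159 CPM with atorvastatin, 28.2 and 48.5 CPM with HCB and 65.4 and 59.2 CPM with both. All HCB-labelled libraries were below all others for both genes.

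In HCB against control, the log2 change was −1.85 ± 0.29 for Col4a1 and −1.50 ± 0.31 for Col4a2 (adjusted p = 0.00119 and 0.00551, edgeR). In the combination against atorvastatin, it was −1.20 ± 0.29 and −1.06 ± 0.31 (adjusted p = 0.011 and 0.0262). The latter 2 calls were lost without atorvastatin replicate 2 (−0.87, adjusted p = 0.066, and −0.69, adjusted p = 0.156, edgeR) and without either library of the combination, with adjusted p of at most 0.0915 and 0.157 over these. The annotated exons of Col4a1 and Col4a2 overlap by 286 bases on opposite strands, 4.34% and 3.88% of their lengths, and reads there cannot be assigned to a strand.

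Col4a3 and Col4a4, with Col4a5, build the trimer known from the kidney glomerulus. Col4a3 (chromosome 9, 83875561 to 84001895, plus strand) stood at 0.508 and 0.474 CPM in control, 0.527 and 0.789 CPM with atorvastatin, 1.49 and 2.19 CPM with HCB and 4.09 and 3.8 CPM with both. Col4a4 (chromosome 9, 83755515 to 83875876, minus strand) stood at 3.22 and 4.05 CPM in control, 3.28 and 7.29 CPM with atorvastatin, 7.76 and 14.7 CPM with HCB and 13.5 and 13.2 CPM with both. Both were higher in every HCB-labelled library than in any other. Col4a3 rose by 1.90 ± 0.48 in HCB against control (log2, adjusted p = 0.0145, edgeR) and by 2.57 ± 0.48 in the combination against atorvastatin (adjusted p = 0.00298), and Col4a4 rose by 1.63 ± 0.41 (adjusted p = 0.0145) and 1.33 ± 0.40 (adjusted p = 0.0319). In HCB against control both calls were lost without control replicate 1 (adjusted p = 0.0753 for Col4a3 and 0.104 for Col4a4, edgeR) and without HCB replicate 2 (0.0617 and 0.109), and that of Col4a3 also without control replicate 2 (0.0681). In the combination against atorvastatin, the call of Col4a4 was lost without atorvastatin replicate 1 and without either library of the combination (adjusted p up to 0.224). Their exons overlap by 316 bases, 5.78% and 4.55% of their lengths.

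Col4a5, the third chain of that trimer, was lower. It stood at 20.7 and 20.9 CPM in control, 18.2 and 23.1 CPM with atorvastatin, 6.71 and 5.69 CPM with HCB and 11.7 and 6.18 CPM with both, with log2 changes of −1.75 ± 0.32 and −1.21 ± 0.31 (adjusted p = 0.00269 and 0.0153, edgeR). Its head to head neighbour on chromosome X, Col4a6, 1319 bases away, stood at 1.37 and 0.545 CPM in control, 0.479 and 3.22 CPM with atorvastatin, 0.0317 and 0.214 CPM with HCB and 0.15 and 0.36 CPM with both. Col4a6 passed in the average (−2.86 ± 0.74, adjusted p = 0.00923, edgeR), and in neither comparison alone. Without atorvastatin replicate 2 that call was lost (−1.89, adjusted p = 0.0547, edgeR). In the average, each of the 3 head to head pairs thus had changes of 1 direction, lower for 2 pairs and higher for Col4a3 with Col4a4. Per length, Col4a1 over Col4a4 was 32.5 to 48.3 in the libraries without HCB and 3.74 to 6.57 in those labelled HCB, and Col4a1 over Col4a2 was 1.58 to 1.67 and 1.21 to 1.5. The first of these ratios could not overlap, since Col4a1 was lower and Col4a4 higher in every HCB-labelled library.

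Of the genes of type VI collagen, the beaded filament around cells, 5 were tested. Of these, 0 were lower in HCB against control, 1 in the combination against atorvastatin and 3 in the average, and 0 were higher. Of all genes, 13.9%, 15% and 25.3% were called lower there. Col6a1 stood at 68.7 and 71.8 CPM in control, 56.6 and 143 CPM with atorvastatin, 36.1 and 48.5 CPM with HCB and 58.7 and 68.2 CPM with both. Col6a2 stood at 40.6 and 42.5 CPM in control, 36.5 and 96.3 CPM with atorvastatin, 22.6 and 28.5 CPM with HCB and 32.7 and 34 CPM with both. Col6a3 stood at 57.6 and 60.6 CPM in control, 51.3 and 131 CPM with atorvastatin, 35.4 and 31.9 CPM with HCB and 38.6 and 55.3 CPM with both. These 3 chains of 1 trimer passed in the average and in neither comparison alone, at −0.69 ± 0.26, −0.85 ± 0.26 and −0.89 ± 0.26 (adjusted p = 0.0461, 0.0202 and 0.0175, edgeR), and all 3 calls were lost without atorvastatin replicate 2 (−0.28, −0.41 and −0.47, with adjusted p of 0.267, 0.0928 and 0.0711). Without that same library all 3 passed in HCB against control, at −0.73, −0.70 and −0.81 (adjusted p = 0.0444, 0.0461 and 0.0298, edgeR).

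The alternative type VI chains were low in most libraries. Col6a5 lay between 0.401 and 0.95 CPM in 7 libraries and at 7.46 CPM in atorvastatin replicate 2. Col6a6 lay between 3.5 and 6.57 CPM in 7 libraries and at 32.2 CPM in the same library. Col6a5 passed in the combination against atorvastatin (−3.07 ± 0.97, adjusted p = 0.0384, edgeR) and lost that call without atorvastatin replicate 2 (−0.08, adjusted p = 0.957). Both genes lie with Col6a4, which had 32 reads in all and was not tested, in a cluster on chromosome 8. Exons of Col6a6 overlap those of Pik3r4 by 535 bases and exons of Col6a2 overlap those of Ftcd by 60 bases, on opposite strands.

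Among fibril-associated collagens, which bind to the surface of fibrils, 2 of 6 tested were lower in HCB against control, 3 in the combination against atorvastatin and 3 in the average, where 1 was higher. Of all genes, 13.9%, 15% and 25.3% were called lower in these comparisons, and 21.3% higher in the average. Col14a1 stood at 226 and 303 CPM in control, 220 and 381 CPM with atorvastatin, 116 and 113 CPM with HCB and 115 and 140 CPM with both. Its log2 changes were −1.21 ± 0.31 and −1.24 ± 0.31 (adjusted p = 0.0157 and 0.014, edgeR). Col16a1 stood at 5.79 and 4.97 CPM in control, 6.51 and 12.3 CPM with atorvastatin, 1.33 and 1.55 CPM with HCB and 1.5 and 1.1 CPM with both, with log2 changes of −1.90 ± 0.39 and −2.86 ± 0.40 (adjusted p = 0.00529 and 0.00059). Neither gene overlapped between HCB-labelled and other libraries.

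Col20a1 stood at 4.42 and 2.63 CPM in control, 6.32 and 3.55 CPM with atorvastatin, 1.33 and 2.06 CPM with HCB and 1.23 and 1.35 CPM with both. Its call in the combination against atorvastatin (−1.93 ± 0.46, adjusted p = 0.0103, edgeR) is uncertain, since 41.2% of its annotated length overlaps exons of Arfgap1 on the same strand. Col22a1, a collagen of tissue junctions, was the only one of its class called higher, in the average (2.18 ± 0.71, adjusted p = 0.0263). It was near the limit of detection, at 0.203 and 0.0474 CPM in control, 0.0479 and 0.125 CPM with atorvastatin, 0.38 and 0.854 CPM with HCB and 0.351 and 0.405 CPM with both. Col12a1, a relative of Col14a1, overlapped between labels at 9.53 to 39.9 CPM and passed in none of the comparisons. Col9a2 ranged from 0.0801 to 0.599 CPM and passed in none, and Col9a3 had 21 reads and was not tested.

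The short-chain collagens, which form open lattices, again split. Col8a1 and Col8a2 encode the chains of type VIII collagen, known from vessel walls and from the corneal membrane. Col8a2 stood at 6.37 and 4.93 CPM in control, 6.47 and 6.23 CPM with atorvastatin, 0.95 and 1.07 CPM with HCB and 1.1 and 1.49 CPM with both. Col8a1 (chromosome 11, 42777628 to 42906424) stood at 0.152 and 0.829 CPM in control, 0.287 and 0.332 CPM with atorvastatin, 4.18 and 2 CPM with HCB and 5.61 and 2.63 CPM with both. The 2 genes were each without overlap, in opposite directions.

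Col8a2 fell, with a log2 change of −2.48 ± 0.37 in HCB against control (adjusted p = 0.000773, edgeR) and of −2.29 ± 0.36 in the combination against atorvastatin (adjusted p = 0.00114). Col8a1 rose by 2.64 ± 0.72 (adjusted p = 0.0211, edgeR) and 3.72 ± 0.76 (adjusted p = 0.005). The first of these calls was lost without control replicate 1 (1.89, adjusted p = 0.112, edgeR) and without HCB replicate 1 (2.04, adjusted p = 0.142), and the value was 4.34 without control replicate 2. Col10a1, the collagen of hypertrophic cartilage, stood at 5.41 and 1.04 CPM in control, 6.16 and 1.95 CPM with atorvastatin, 1.9 and 1.82 CPM with HCB and 0.978 and 0.81 CPM with both. Its high libraries were control replicate 1 and atorvastatin replicate 1, the 2 with the largest share of reads outside exons (27.7% and 34%). The log2 change in the combination against atorvastatin was −2.18 ± 0.74 (adjusted p = 0.0489, edgeR). Without both libraries, this call and that in the average were lost, at −1.13 (adjusted p = 0.216, edgeR) and −0.15 (adjusted p = 0.812).

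Collagens that span the cell membrane were lower or did not pass. Col25a1 stood at 5.28 and 3.77 CPM in control, 5.13 and 3.92 CPM with atorvastatin, 2.09 and 2 CPM with HCB and 1.9 and 2 CPM with both, with log2 changes of −1.14 ± 0.36 and −1.21 ± 0.36 (adjusted p = 0.0373 and 0.029, edgeR). Col17a1, which anchors epithelial cells in hemidesmosomes, stood at 1.02 and 0.474 CPM in control, 1.34 and 1.18 CPM with atorvastatin, 0 and 0.107 CPM with HCB and 0.0251 and 0.09 CPM with both, with log2 changes of −3.65 ± 1.08 and −4.36 ± 1.06 (adjusted p = 0.0292 and 0.0119). The first value of Col17a1 was −3.01 without control replicate 1 (adjusted p = 0.148, edgeR) and −2.74 without HCB replicate 1 (adjusted p = 0.126), both without a call, and without HCB replicate 2 the library that remained had 0 reads. Its second call was lost without atorvastatin plus HCB replicate 1 (adjusted p = 0.0993). That of Col25a1 in HCB against control was lost without any 1 of the control, HCB or combination libraries (adjusted p up to 0.235). Col25a1 and Col17a1 were each lower in all HCB-labelled libraries. Col13a1 ranged from 4.34 to 8.53 CPM with overlap and passed in none of the comparisons.

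For 2 genes at 0 reads in both libraries of the combination, only a bound can be given. Col23a1, the last of the membrane-spanning class, had 29 reads in the atorvastatin libraries and was at least 4.53-fold lower in the combination, from a floor of 6 reads over the group. Col7a1, the anchoring fibril of the skin, had 47 reads and was at least 7.35-fold lower. Of these 47 reads, 8 were in atorvastatin replicate 1 and 39 in replicate 2, so this bound rests mainly on 1 library. Col23a1 stood at 0.432 and 0.261 CPM in control, 0.479 and 0.187 CPM with atorvastatin and 0 and 0.107 CPM with HCB. Col7a1 stood at 0.102 and 0.355 CPM, 0.192 and 0.81 CPM, and 0.127 and 0.107 CPM in the same groups. Both passed in that comparison (adjusted p = 0.0301 and 0.0158, edgeR), but neither call was kept in all alternatives run. That of Col7a1 was lost without atorvastatin replicate 2, among others. Of the 2 genes left in no class, Col28a1 had 44 reads and passed in none of the comparisons, and Col26a1 had 10 reads and was not tested. With genes at their bounds, and Col28a1 left out of HCB against control, the median log2 changes of the collagen genes were −1.21 and −1.76.

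The multiplexins, basement membrane collagens whose ends are released as fragments such as endostatin, comprise Col18a1 and Col15a1. Col18a1 (chromosome 20, 11474104 to 11582593), the highest collagen gene per length, stood at 1176 and 1011 CPM in control, 916 and 785 CPM with atorvastatin, 466 and 743 CPM with HCB and 901 and 748 CPM with both. The HCB libraries were the lowest and the combination overlapped atorvastatin. Its log2 change in HCB against control was −0.86 ± 0.33 (adjusted p = 0.0788, edgeR), past the threshold in DESeq2 (adjusted p = 0.0165), and −0.04 ± 0.33 in the combination against atorvastatin (adjusted p = 0.933). Col15a1 stood at 0.533 and 0.758 CPM in control, 1.08 and 14.1 CPM with atorvastatin, 0.253 and 0.427 CPM with HCB and 0.1 and 0.652 CPM with both, and its call in the combination against atorvastatin (−4.31 ± 1.14, adjusted p = 0.0206, edgeR) was lost without atorvastatin replicate 2 (−1.49, adjusted p = 0.301).

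Atorvastatin gave no collagen call. In atorvastatin against control, 0 of 38 collagen genes and 0% of all 16591 genes passed in edgeR, with 8 and 181 genes at an unadjusted p under 0.05, and DESeq2 called 0 collagen genes and 3 genes in all. The 8 genes (Col15a1, Col5a3, Col1a1, Col6a5, Col1a2, Col3a1, Col6a6 and Col16a1) all had higher means with atorvastatin. The log2 changes of 5 of them were 3.55 ± 1.08 (Col15a1), 3.30 ± 1.05 (Col5a3), 2.65 ± 0.95 (Col6a5), 2.45 ± 0.77 (Col1a1) and 1.83 ± 0.79 (Col6a6), each with an adjusted p of 1 in edgeR. Without atorvastatin replicate 2 the same 5 values were 0.73, 0.17, −0.33, 0.14 and −0.53. With no filter on low counts these 5 genes passed, among 76 of 22537 genes, and without atorvastatin replicate 1 they passed together with Col1a2, among 33 of 17250.

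Atorvastatin replicate 2 was higher than its partner in many collagen genes. Among the 30 collagen genes with a mean of at least 1 CPM, 13 were more than 1 higher on the log2 scale in replicate 2 than in replicate 1 (values with 0.5 CPM added), with a median of 0.74. Of 12934 genes at that level, 3.68% were more than 1 higher, with a median of 0.03. In control, HCB and the combination, 1, 1 and 0 of the 30 collagen genes were more than 1 higher in replicate 2.

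The same library had high sums of markers of collagen-making cells other than stellate cells, though not every marker was raised. The 7 portal fibroblast markers found, Eln and Fbln2 among them, summed to 395 CPM there and to 41.1 CPM in its partner, 100 and 76 CPM in control and 19.9 to 27.2 CPM in the HCB-labelled libraries. The 6 myofibroblast and smooth muscle markers summed to 163 CPM there, 33.5 to 58 CPM in the other libraries without HCB and 25.6 to 36.2 CPM in the HCB-labelled ones, and the 5 mesothelial markers to 72.1 CPM there and 16.2 to 36.9 CPM in the other 7 libraries. The 12 stellate cell markers summed to 794 CPM there and 673 to 789 CPM in the other libraries without HCB. Eln alone was at 304 CPM there, and Fbln2, Msln, Cd34 and Mfap4 were also higher there than in any other library. Thy1 (2.16 CPM) and Gli1 (0.789 CPM) were little above the other libraries without HCB (up to 1.78 and 0.762 CPM). Of the mesothelial markers, Gpm6a was at 32.6 CPM there and 33.2 CPM in control replicate 2, and the others were highest there. The stellate marker Des was at 10.5 CPM there and at most 6.11 CPM elsewhere. The part of these cells in the collagen levels was not tested.

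**Figure D4:**
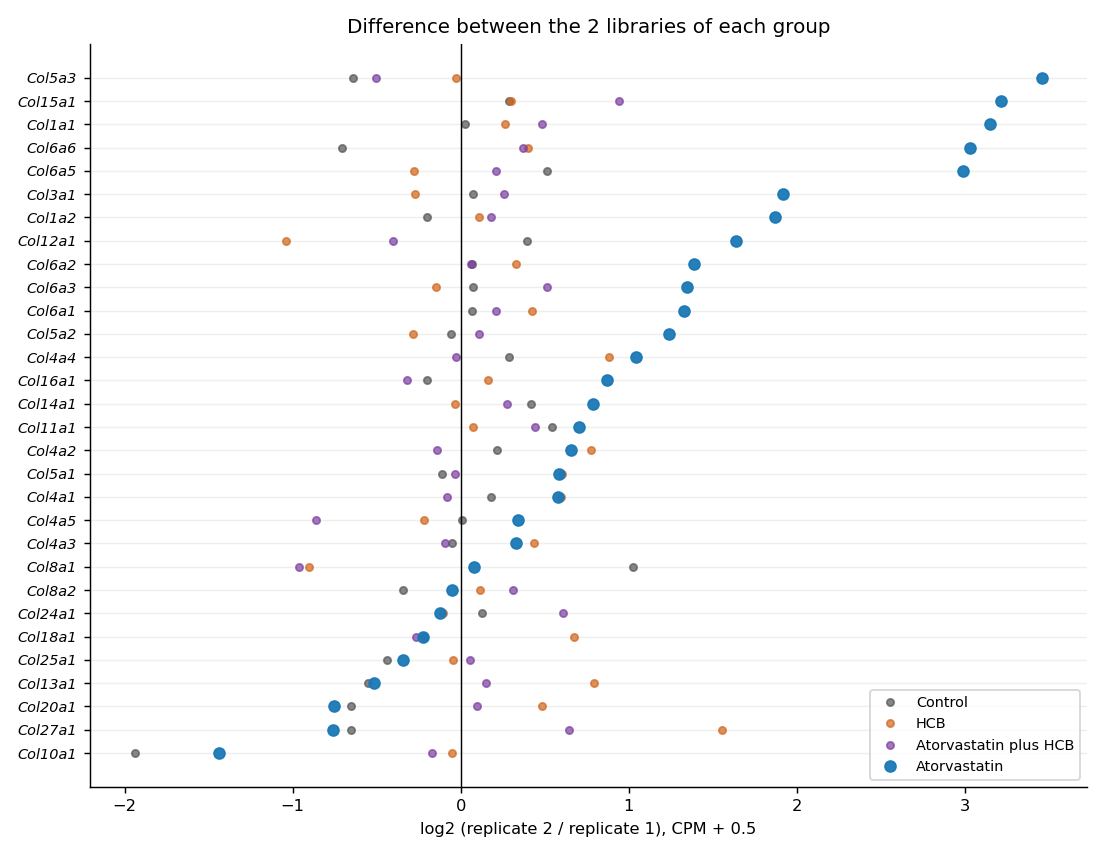
Log2 ratio of replicate 2 to replicate 1 (horizontal axis, CPM with 0.5 added) within each group, for the 30 collagen genes with a mean of at least 1 CPM. The large blue points, atorvastatin, reach 3.46 (Col5a3), and 13 of 30 exceed 1, whereas the points of the other groups do so for 1, 1 and 0 genes.

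With HCB as background, atorvastatin again gave no call. In atorvastatin plus HCB against HCB, 0 of 38 collagen genes and 0% of all genes passed in edgeR, with 6 and 857 at an unadjusted p under 0.05, and DESeq2 called 0 collagen genes and 47 in all. Of the 6, Col4a1 (0.91 ± 0.29), Col4a2 (0.70 ± 0.31), Col4a3 (1.10 ± 0.45) and Col5a1 (0.76 ± 0.28) had both libraries of the combination above both HCB libraries, each at an adjusted p of 0.892 in edgeR. The other 2 were Col28a1, with 0 reads in HCB and 16 in the combination, and Col7a1, with 8 and 0. The interaction, which asks whether the change with HCB differs with atorvastatin, called 0 of 38 collagen genes and 0% of all genes in edgeR, with 2 and 391 at an unadjusted p under 0.05, and DESeq2 called 0 and 5.

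Genes that make, mature and degrade collagen were read from lists of genes. Of 21 genes for folding and modification in the endoplasmic reticulum, 2 were higher and 3 lower in HCB against control, 2 and 6 in the combination against atorvastatin, and 3 and 8 in the average. Fkbp10 and P3h3, a prolyl isomerase and a relative of the prolyl 3-hydroxylases, had log2 changes of −1.75 ± 0.27 and −1.46 ± 0.24 in the average (adjusted p = 0.000443 and 0.000575, edgeR). Serpinh1, the main collagen chaperone, changed by −1.09 ± 0.25 (adjusted p = 0.00482). Tmem38b, an ion channel of the endoplasmic reticulum, rose by 2.18 ± 0.18 (adjusted p = 5.07e-06), and P4ha2, a prolyl 4-hydroxylase subunit, by 1.16 ± 0.25 (adjusted p = 0.00313). The shares of all genes called, given above, were 26.9%, 27.6% and 46.6% in these 3 comparisons.

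Enzymes that trim and cross-link collagen outside the cell had calls in both directions. Of 10 tested, 1 was higher and 5 lower in both comparisons and in the average, beside 13.9%, 15% and 25.3% of all genes called lower. Adamts2, which removes the amino-terminal propeptide of fibrillar procollagens, stood at 33.8 to 36 CPM in the libraries without HCB and at 5.45 to 9.85 CPM in those labelled HCB, with a log2 change of −2.31 ± 0.16 in the average (adjusted p = 2.08e-06, edgeR). Pcolce, the enhancer of carboxyl-propeptide removal, changed by −2.06 ± 0.20 (adjusted p = 1.67e-05) and Adamts3 by −2.93 ± 0.39 (adjusted p = 0.000167), while Loxl4, a lysyl oxidase relative, rose by 3.27 ± 0.46 (adjusted p = 0.000421). Lox itself was at 130 CPM in HCB replicate 2 and at 0.765 to 12.5 CPM in the other 7 libraries, and did not pass.

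Breakdown and binding genes had no call higher except 1 proteoglycan. Of 10 genes for breakdown and uptake, 6 were lower in each comparison and 7 in the average (of all genes, 13.9%, 15% and 25.3% were called lower), among them Timp4, an inhibitor of metalloproteinases (−4.72 ± 0.49, adjusted p = 2.87e-05, edgeR), the collagenase Mmp8 (−4.16 ± 0.49, adjusted p = 7.42e-05), Mmp9 (−2.61 ± 0.44, adjusted p = 0.000752) and the collagen uptake receptor Mrc2 (−1.83 ± 0.33, adjusted p = 0.00128). Mmp8 and Mmp9 are made by neutrophils, and the 6 neutrophil markers summed to 106 to 180 CPM without HCB and 0.301 to 1.39 CPM with it (Ltf was at 0 in all libraries). The part of these cells in the result was not tested. Of 8 collagen receptors, 3, 4 and 4 were lower, with Adgrg1 (−2.78 ± 0.22, adjusted p = 4.59e-06) and Itga11 (−3.13 ± 0.41, adjusted p = 0.000151) in the average. Of 7 proteoglycans that bind collagen, Lum (−2.88 ± 0.60, adjusted p = 0.003) and Dcn (−1.79 ± 0.42, adjusted p = 0.00687) were lower and Prelp (1.35 ± 0.34, adjusted p = 0.0091) higher in the average.

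Markers of the cells that could supply the collagen were read beside these results. In the average HCB effect, 21.3% of all genes were called higher and 25.3% lower, and the counts of each list stand beside these shares. There, 2 of 12 stellate cell markers were higher (Ecm1, 1.91 ± 0.24, and Rgs5, 2.13 ± 0.31) and 5 lower (Reln, −1.42 ± 0.20, and Pdgfrb, −0.99 ± 0.20, among them; adjusted p of 0.000107 to 0.00241 for these 4 in edgeR). Their sum was 673 to 794 CPM without HCB and 462 to 732 CPM with it. Lrat, the enzyme that forms retinyl esters and a marker of resting stellate cells, did not pass (0.02 ± 0.19). Of 7 portal fibroblast markers 4 were lower (Fbln2, −2.64 ± 0.39, Thy1, −2.62 ± 0.42, Eln, −3.38 ± 0.65, and Gli1, −3.14 ± 0.80). Of 6 myofibroblast and smooth muscle markers 2 were lower, Postn (−5.96 ± 0.76) and Acta2 (−1.98 ± 0.40). No member of these 3 lists was at 0 in all libraries, and their part in the collagen results was not tested.

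Other cell type lists moved as follows in the average HCB effect. All 6 erythroid markers tested were lower, summing to 64.6 to 299 CPM without HCB and 6.67 to 34.5 CPM with it, as were all 5 neutrophil markers tested and all 6 fetal liver genes. Of 8 adult hepatocyte markers 6 were higher and 1 lower, and of 8 endothelial markers 2 were higher and 2 lower (Clec4g, 2.47 ± 0.20, and Stab2, −1.26 ± 0.18, with the smallest p). Macrophage markers had 1 higher and 1 lower of 6, bile duct markers 1 and 2 of 4, mesothelial markers 0 and 0 of 5, and cartilage markers 0 and 2 of 2 tested (Sox9, −2.08 ± 0.25, also a bile duct marker, and Matn3, 0 reads in all HCB-labelled libraries). Alb, the main secreted protein of hepatocytes, stood between 45700 and 125000 CPM in all libraries.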

How the data were processed

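Whole-number read counts per gene, deposited by the authors for 8 rat liver libraries, and the deposited counting summary were used, with 0 columns left out. Per the submitters' processing notes, reads of 2 × 150 bases passed through fastp 0.23.4 for trimming and STAR 2.7.10b for alignment, and the authors tested with DESeq2 1.42.1 in R 4.3.2. Per the file headers, exon reads were counted with featureCounts 2.0.6 on Ensembl 111 (mRatBN7.2), without strand and without multimapping reads. Reads of all classes summed to 508 M, and mates of a pair appear to be counted singly, so a floor of 3 read pairs is 6 reads. Such floors reflect counting error alone.

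The tests used edgeR 4.0.16 in R 4.3.3 (TMM, filterByExpr on the 4 groups, robust quasi-likelihood, 1 model, 4 residual degrees of freedom, Benjamini-Hochberg over 16591 genes, threshold 0.05). The filter kept 54.3% of genes. CPM are deposited counts scaled to normalised library size, and RPKM divides by the deposited gene length. The 6 comparisons were HCB against control, atorvastatin against control, the combination against each single agent, the interaction and the average HCB effect. The steps were run on simulated data only for HCB against control and the average HCB effect, with non-robust estimation. Promoter windows come from RefSeq (GRCr8), matched by symbol, and no coordinates were moved between builds. Figures used matplotlib 3.10.9 and Python 3.11.15.

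Values in every library are given for members called in a comparison, the 5 highest per length, trimer partners and genome neighbours. Exceptions are Col6a5 and Col6a6, given as ranges beside their highest library, and Col6a4, given by its reads. Of each other list at most 4 called members were named, by smallest p in the average HCB effect. Lox, Serpinh1, Lrat, Acan, Matn1, Ltf, Alb, Msln, Cd34, Mfap4, Gpm6a and Des lie outside this rule and were named after their values were seen. The collagen genes, classes and lists were chosen with earlier results of these data known. Alternatives were DESeq2 1.42.0, its size factors, 2 other filters, non-robust estimation, the replicate number as a block, 2 groups alone, halved counts, and libraries left out.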

Additional observations from a re-analysis of the deposited data

Results flagged for a closer look

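Col18a1 had differences of opposite sign with atorvastatin in the absence and in the presence of HCB, and neither passed the threshold (−0.36 ± 0.33, adjusted p = 1, and 0.45 ± 0.33, adjusted p = 0.892, edgeR). Both atorvastatin libraries (916 and 785 CPM) lay below both control libraries (1176 and 1011 CPM), while both libraries of the combination (901 and 748 CPM) lay above both HCB libraries (466 and 743 CPM). The interaction was 0.81 ± 0.47 (log2, SE) and did not pass the threshold (adjusted p = 1, edgeR), so the difference between the 2 responses is not shown. With 2 libraries per group, the gap between the combination and HCB (748 against 743 CPM) is small.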

How the results depend on the processing

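The number of collagen genes called with HCB moved between alternatives. Leaving out 1 library gave 9 to 21 collagen genes in HCB against control (9 without control replicate 1 and without HCB replicate 1), 8 to 24 in atorvastatin plus HCB against atorvastatin (8 and 13 without replicate 1 and 2 of the combination, 17 without atorvastatin replicate 2), 23 to 30 in the average HCB effect, 0 to 6 in atorvastatin against control (6 without atorvastatin replicate 1), and 0 in the other 2 comparisons. A group of 1 library is then assumed to vary like the other groups. The cause was not tested. With no filter on low counts, 5 genes passed in atorvastatin against control and 3 in the interaction (Col15a1, Col1a1 and Col6a5), against 0 in each. Called in all alternatives run were 7 of 15 genes in HCB against control, 7 of 25 in the combination against atorvastatin and 17 of 29 in the average. Col1a1 in HCB against control passed in 9 alternatives.

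Values of Col6a5, Col6a6, Col3a1 and Col6a1 changed sign without atorvastatin replicate 2. With 1 library left out, the log2 change ran from −0.33 to 3.56 for Col6a5 and from −0.53 to 2.68 for Col6a6 in atorvastatin against control, from −1.75 to 0.18 for Col3a1 and from −1.17 to 0.18 for Col6a1 in the combination against atorvastatin, and from −0.96 to 0.002 for Col3a1 in the average. Col18a1 in the combination against atorvastatin, −0.04 and not called, ran from −0.15 to 0.11 with 1 library left out (positive without atorvastatin replicate 1 and without atorvastatin plus HCB replicate 2) and was 0.067 without both libraries with most reads outside exons.

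Replicate numbers were not treated as pairs in the main tests. Deviations of same-numbered libraries correlated at 0.325 between control and atorvastatin and at −0.098 to 0.089 between the other groups. These correlations cannot tell whether same-numbered animals share a batch. With the replicate number as a block, 17, 24 and 29 collagen genes were called in the 3 comparisons with HCB, and 0 in the others. Another scaling moved the median of all genes by at most 0.02.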
